A study of Mus musculus with 10 samples.

Results

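The interaction of Irf1 knockdown and TGFbeta asks, gene by gene, how far the response to TGFbeta differed between cells transfected with an siRNA against Irf1 (siIrf1) and cells transfected with a control siRNA (siCtr). It was computed as the TGFbeta change in siIrf1 cells minus the TGFbeta change in siCtr cells, on the log2 scale, so that a positive value means a higher level after TGFbeta in siIrf1 cells than the siCtr response would give. All 10 RNA-seq libraries of the series entered it. They came from NMuMG/E9 cells, a subclone of the mouse mammary gland epithelial line NMuMG, and hence from 1 clone. All cells received siRNA at 20 nM and were harvested on day 3. Cells of the TGFbeta groups also received recombinant human TGFbeta1 at 2 ng/ml for the last 2 d, and the 0 d groups received none. There were 2 siCtr 0 d, 2 siCtr TGFbeta, 3 siIrf1 0 d and 3 siIrf1 TGFbeta libraries. The labels number the replicates but do not say whether they were separate cultures, and all p-values below measure no more than the spread among these libraries, which may be technical.

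TGFbeta binds a pair of receptor kinases that phosphorylate Smad proteins, and in mammary epithelial cells it drives an epithelial to mesenchymal transition (EMT), in which junction and keratin genes fall and matrix, integrin and contractile genes rise. Irf1 is a transcription factor of the interferon regulatory factor family, best known for activating interferon-stimulated and antigen presentation genes. NMuMG cells are a common model of EMT because they convert from an epithelial sheet to elongated cells under TGFbeta.

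The libraries held 27547649 to 67301646 counts over 24454 genes, and 13135 genes with enough counts were tested. Levels below are counts scaled to library size after normalization (CPM), and changes are log2 fold changes with their standard error (±). A gene was called when its p-value, adjusted over all genes tested by the Benjamini-Hochberg method, was below 0.05. Every siIrf1 library held less Irf1 (36.5 to 64.1 CPM) than any siCtr library (106.5 to 148 CPM). The gene lies on chromosome 11 at 53770014 to 53778374 of GRCm38.p6. Its TGFbeta change did not differ detectably between the siRNAs, with an interaction of -0.18 ± 0.219 (adjusted p = 0.690) and a 95% interval of -0.67 to 0.30. The epithelial genes Krt18 and Cdh1 were abundant without TGFbeta, at 3486 to 4314 CPM and 581 to 694 CPM. The siCtr 0 d replicate 1 and siIrf1 TGFbeta replicate 2 libraries stood apart from their groups. In siCtr 0 d replicate 1 the 2605 genes of lowest GC content were shifted by -1.33 (log2) against an equal share of genes at the highest GC content, and the group means of this shift were -0.96 in siCtr 0 d, 0.475 in siIrf1 0 d, -0.293 in siCtr TGFbeta and 0.386 in siIrf1 TGFbeta. The median interaction ran with it, from -0.566 over the genes of lowest GC content to 0.271 over those of highest, and the part of this shift in the calls was measured only by removing the trend, as given below.

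Most interaction genes had a smaller TGFbeta response after Irf1 knockdown. With all libraries TGFbeta was also called for fewer genes in siIrf1 than in siCtr cells, but the order of these counts depended on single libraries. In siCtr cells 4267 genes were called (32.5% of those tested), 2120 up and 2147 down, and in siIrf1 cells 2799 (21.3%), 1523 up and 1276 down. The order was turned without siCtr 0 d replicate 1 (2788 in siCtr and 2974 in siIrf1 cells), without siCtr TGFbeta replicate 2 (2297 and 2457) and without the 2 libraries that stood apart (4208 and 4873). The same direction was called in both for 2075 genes, which were 48.6% of the siCtr calls and 74.1% of the siIrf1 calls. The interaction was called for 541 genes (4.12%), of which 368 (2.8%) were higher and 173 (1.32%) lower in siIrf1 cells. For an interaction call, higher or lower in siIrf1 cells gives the sign of the interaction and not the level. At an unadjusted p below 0.05 there were 2380 genes. The genes higher in siIrf1 cells were 68% of the calls, against 54.2% of 1163 calls once each library's trend with GC content and gene length was removed. Of the genes called in siCtr cells only, 1947 had no interaction call, and so did 649 called in siIrf1 cells only. For these genes a difference between the siRNAs in the TGFbeta response was not shown.

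The 541 interaction genes were sorted by their TGFbeta calls. A response was called lost when TGFbeta changed the gene in siCtr cells and was not called in siIrf1 cells (220 genes), weakened when it was called in the same direction in both and was smaller in siIrf1 cells (229 genes), and reversed when the directions were opposite (25 genes). It was called enhanced when it was larger in siIrf1 cells (17 genes) and gained when it was called in siIrf1 cells only (50 genes). Lost or weakened responses thus held 40.7% and 42.3% of the interaction genes. Among the lost genes 67 had risen and 153 had fallen in siCtr cells, and among the weakened 81 had risen and 148 had fallen. The median change of the 148 weakened genes that fell was -3.48 in siCtr and -1.38 in siIrf1 cells, and that of the 81 that rose was 3.74 and 1.81. The classes are made from the calls and the same libraries, so their sizes and medians describe them and carry no test of their own. A missing TGFbeta call does not show an absent response, so lost and gained genes may still respond where they were not called.

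**Figure D1:**
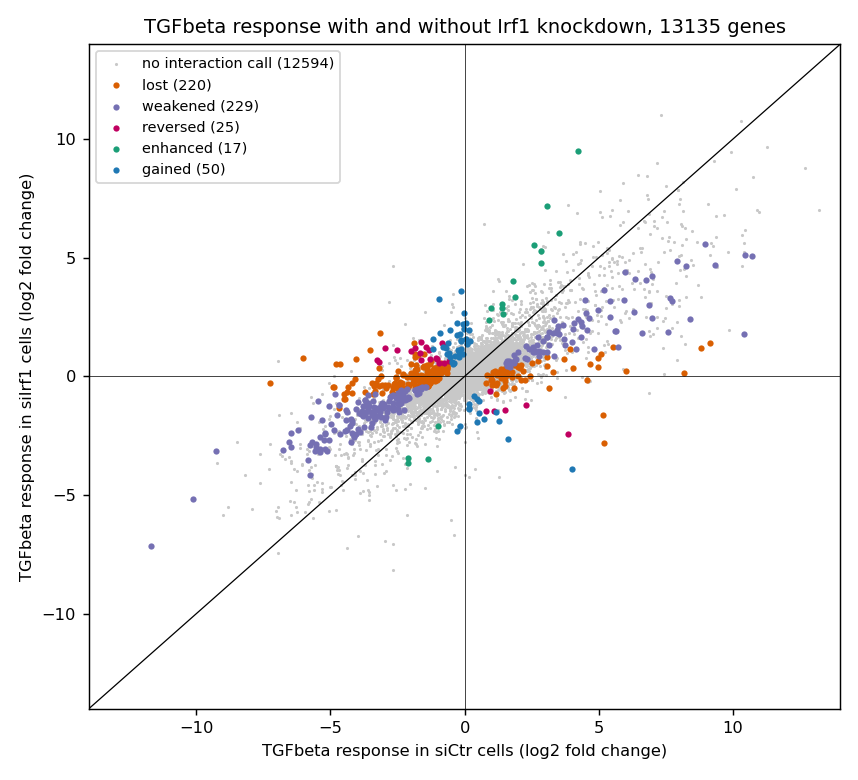
Log2 TGFbeta change in siIrf1 cells (vertical axis) against that in siCtr cells (horizontal axis) for the 13135 genes tested, with the 541 interaction genes coloured by response class and the line of equal responses drawn. Lost genes lie along the horizontal axis, weakened genes between it and the line, and the 25 reversed genes in the quadrants of opposite sign.

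A difference in response can lie in the level before TGFbeta, in the level after it, or in both. The siIrf1 and siCtr cells differed by a call only without TGFbeta for 187 of the 541 genes, only with TGFbeta for 197, and in both conditions for 156, of which 105 had opposite signs. For 1 gene neither difference was called. Of the 12594 genes with no interaction call, 2585 differed only without TGFbeta, 765 only with it and 1247 in both, so a difference between the siRNAs without TGFbeta was common among all genes. Of the 13 enhanced genes that rose, 9 differed by a call only without TGFbeta and 0 only with it, and of the 35 gained genes that rose 17 and 11. Of the 148 weakened genes that fell, 35 differed only without TGFbeta and 65 only with it. Among the 19 reversed genes that fell in siCtr cells, 13 were called in both conditions with opposite signs. The interaction is the difference of these 2 contrasts, so the split describes the genes and is not a further test.

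**Figure D2:**
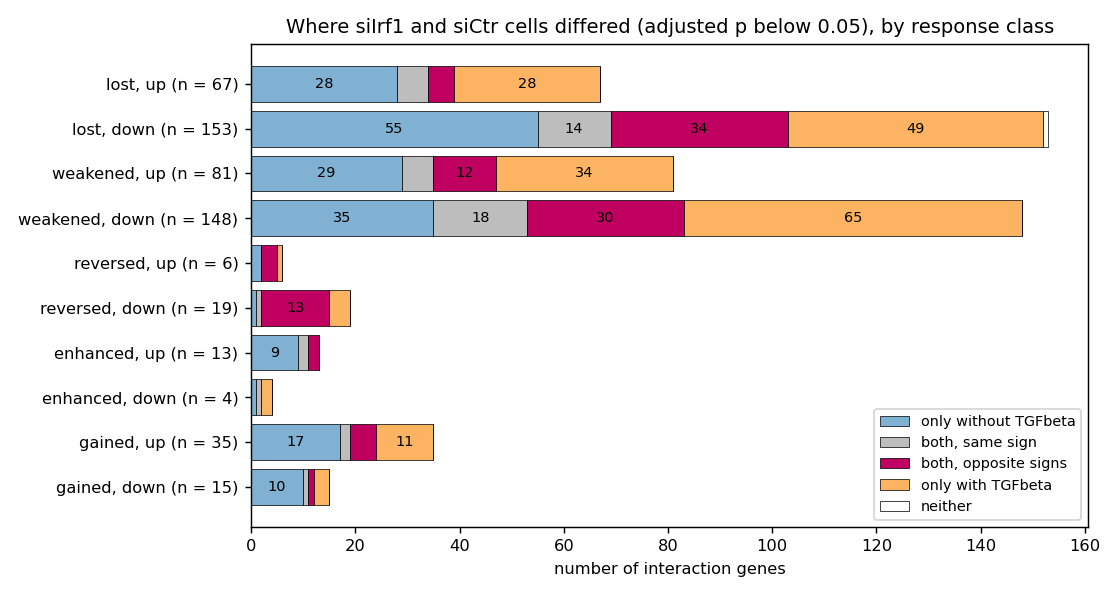
Number of interaction genes (horizontal axis) in each response class and direction, divided by whether siIrf1 and siCtr cells differed at an adjusted p below 0.05 only without TGFbeta, only with it, in both or in neither. Of the 13 enhanced genes that rose 9 differed only without TGFbeta, and of the 19 reversed genes that fell in siCtr cells 14 differed in both conditions.

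Of the 153 genes whose fall under TGFbeta was lost, 5 were named by the rule that takes the largest interactions in each class: Mep1a, Rab3b, Dio1, Cbln3 and Eps8l3. Mep1a stood at 66.2 and 55.7 CPM in siCtr cells without TGFbeta and 3.37 and 3.76 CPM with it, against 59.8, 58.5 and 61.7 CPM and 52.6, 57.1 and 57.3 CPM in siIrf1 cells. Mep1a encodes meprin alpha, a metalloprotease of brush border membranes, and only the siCtr TGFbeta pair was low, with the other 8 libraries at 52.6 to 66.2 CPM. Its interaction of 3.99 ± 0.226 (adjusted p = 7.8e-05) came with a TGFbeta change of -4.10 ± 0.190 in siCtr and -0.11 ± 0.135 in siIrf1 cells (adjusted p = 0.651). In siCtr cells Rab3b measured 8.01 and 4.88 CPM at 0 d and 0.335 and 0.466 CPM after TGFbeta, and in siIrf1 cells 2.07, 2.42 and 2.08 CPM and 3.04, 4.08 and 3.79 CPM. The siIrf1 TGFbeta libraries of Rab3b, a small GTPase of secretory vesicles, lay above their own 0 d libraries, a change of 0.73 ± 0.244 that missed the threshold (adjusted p = 0.0587), and the interaction was 4.76 ± 0.426 (adjusted p = 7.4e-04). Dio1, the type 1 deiodinase that activates thyroid hormone, fell in siCtr cells from 19.3 to 20.5 CPM to 0.447 to 0.933 CPM, whereas siIrf1 cells held 8.04 to 12.4 CPM without and 5.31 to 8.12 CPM with TGFbeta. The interactions of Dio1, of the cerebellin gene Cbln3 and of Eps8l3, an Eps8-like actin regulator, were 4.47 ± 0.487 (adjusted p = 0.00153), 4.41 ± 0.387 (adjusted p = 6.7e-04) and 3.91 ± 0.335 (adjusted p = 6.7e-04). All 5 kept their call when any single library was left out. In Rab3b, Dio1, Cbln3 and Eps8l3 the siIrf1 level without TGFbeta was already below that of siCtr cells, with log2 differences of -1.55, -1.06, -1.11 and -1.68. In Mep1a the siRNA difference without TGFbeta was -0.02.

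Further lost genes were chosen for naming after their values were seen. Cdhr5, a cadherin of microvilli, stood at 149 and 123 CPM in siCtr 0 d cells and at 14.3 and 15.3 CPM after TGFbeta, while all 6 siIrf1 libraries held 19.9 to 37.2 CPM (interaction 2.81 ± 0.317, adjusted p = 0.00160). Cyp2s1, a cytochrome P450 of epithelia, changed by -3.38 in siCtr cells and had a value of -0.41 with no call in siIrf1 cells, an interaction of 2.97 ± 0.288 (adjusted p = 0.00102). Slit3, a secreted guidance ligand, was low only in the siCtr TGFbeta pair, at 2.53 and 3.23 CPM, with the other 8 libraries at 29.9 to 67.2 CPM (interaction 3.16 ± 0.336, adjusted p = 0.00139). Tnxb, which encodes the matrix glycoprotein tenascin-X, was high only in the siCtr 0 d pair, at 100.4 and 109 CPM, with the remaining 8 libraries at 10.3 to 25.0 CPM (interaction 3.03 ± 0.349, adjusted p = 0.00161). Without TGFbeta the log2 difference between siIrf1 and siCtr cells was 0.91 in Slit3 and -2.54 in Tnxb. All 4 were called without any single library.

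Of the 67 lost genes that rose in siCtr cells, Castor1 was high in 1 group only. Castor1 stood at 2.44 and 2.67 CPM in siCtr cells without TGFbeta and 24.4 and 25.4 CPM with it, against 1.95, 3.05 and 2.29 CPM and 2.69, 3.28 and 2.26 CPM in siIrf1 cells. The siCtr TGFbeta pair of Castor1, a cytosolic arginine sensor of the mTORC1 pathway, stood far above the other 8 libraries (1.95 to 3.28 CPM), and its interaction was -3.11 ± 0.358 (adjusted p = 0.00161). In Cfi and Eprn the siIrf1 cells stood at the higher level from the start. In siCtr cells Cfi measured 0.0393 and 0.152 CPM at 0 d and 6.59 and 6.89 CPM after TGFbeta, and in siIrf1 cells 5.02, 7.33 and 10.3 CPM and 7.65, 8.50 and 10.8 CPM. Cfi encodes complement factor I, a protease that inactivates complement fragments, and only its siCtr 0 d pair was low, so the lost rise (interaction -5.76 ± 0.619, adjusted p = 0.00153) came with a siRNA difference of 6.18 before TGFbeta. Eprn, annotated as a non-coding RNA, stood at 2.28 and 3.00 CPM in siCtr 0 d and at 11.9 to 25.3 CPM in the other 8 libraries (interaction -2.42 ± 0.344, adjusted p = 0.00448). Castor1, Cfi and Eprn were called without any single library. Zfp937, a zinc finger gene, had an interaction of -2.24 ± 0.515 (adjusted p = 0.0399) and the interleukin 33 receptor gene Il1rl1, at 139.8 to 145 CPM in siCtr TGFbeta against 22.6 to 46.6 CPM in siIrf1 TGFbeta, one of -2.23 ± 0.506 (adjusted p = 0.0398). The TGFbeta change of Il1rl1 in siIrf1 cells was 0.83 ± 0.318 and missed the threshold (adjusted p = 0.0965). Here and below, a range in brackets after a gene is that of its interaction over the 10 fits that each left out 1 library. In these sentences "without" names the single library left out. Calls of named genes that other settings ended, among them a replicate block, are given mainly near the end. Zfp937 (-2.73 to -2.04) was called only without siCtr 0 d replicate 3 or siIrf1 TGFbeta replicate 1. With all libraries, it was also not called with a replicate block or with the GC and length trend removed (-1.53, adjusted p = 0.135). Il1rl1 (-2.91 to -1.88) was called only without siCtr 0 d replicate 3 or siIrf1 TGFbeta replicate 1 or 2.

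Weakened rises included the matrix gene Tnc, the integrin gene Itga5 and the cytokine gene Il11. Tnc stood at 77.2 and 63.9 CPM in siCtr cells without TGFbeta and 1617 and 1694 CPM with it, against 50.5, 57.9 and 41.5 CPM and 243, 144 and 199 CPM in siIrf1 cells. Tnc encodes tenascin-C, a matrix glycoprotein of EMT and wounds. Both siCtr TGFbeta libraries stood far above all 3 siIrf1 TGFbeta libraries, while the 0 d libraries lay between 41.5 and 77.2 CPM, and the rise was 4.55 ± 0.283 in siCtr and 1.97 ± 0.207 in siIrf1 cells, an interaction of -2.59 ± 0.322 (adjusted p = 0.00242). In siCtr cells Itga5 measured 15.1 and 16.4 CPM at 0 d and 250.2 and 270.3 CPM after TGFbeta, and in siIrf1 cells 9.61, 13.2 and 10.2 CPM and 47.3, 40.3 and 42.5 CPM. Itga5, the alpha subunit of the fibronectin receptor, had no overlap between the TGFbeta groups of the siRNAs and an interaction of -2.07 ± 0.248 (adjusted p = 0.00187). Il11, an interleukin 6 family cytokine induced by TGFbeta, rose by 8.96 in siCtr and 5.56 in siIrf1 cells, to 165 and 214 CPM and to 10.3 to 15.3 CPM (interaction -3.40 ± 0.474, adjusted p = 0.00403). Tnc, Itga5 and Il11 were called without any single library.

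The largest weakened rises by the naming rule were Cyp11a1, Tagln and Chrna1. In siCtr cells Cyp11a1 measured 0.0785 and 0.0606 CPM at 0 d and 20.8 and 27.1 CPM after TGFbeta, and in siIrf1 cells 0.314, 0.633 and 0.712 CPM and 3.19, 2.80 and 3.01 CPM. Cyp11a1 makes pregnenolone from cholesterol, and its 4 groups did not overlap (interaction -5.97 ± 0.564, adjusted p = 0.00102). Its siCtr 0 d group held 4 counts in all against 1928 after TGFbeta, so the size of its interaction is uncertain. Tagln stood at 0.0393 and 0.0303 CPM in siCtr cells without TGFbeta and 51.6 and 71.9 CPM with it, against 0.471, 0.701 and 0.633 CPM and 27.7, 20.6 and 13.2 CPM in siIrf1 cells. Tagln encodes transgelin, an actin-binding protein of smooth muscle. Its siCtr 0 d group held 2 counts in all against 4933 after TGFbeta, a ratio of 1721 with a 95% counting interval of 476 to 14216, so the size of its interaction (-5.62 ± 0.731, adjusted p = 0.00323) rests on those 2 counts. Chrna1, the muscle acetylcholine receptor alpha subunit, likewise had 2 counts in siCtr 0 d and 4205 after TGFbeta, a ratio of 1467 with a 95% counting interval of 406 to 12119. In siIrf1 cells Chrna1 reached 1.39 to 2.72 CPM against 46.2 and 57.4 CPM in siCtr TGFbeta, and its interaction was -5.33 ± 0.927 (adjusted p = 0.0115). Such intervals cover counting error only. All 3 were called without any single library. Mcam, the adhesion molecule CD146, and Lrrc32, a membrane protein that binds latent TGFbeta, were added after their values were seen, and their rises were 5.63 against 1.89 and 6.31 against 2.70 in siCtr against siIrf1 cells. Mcam ended at 54.5 and 62.5 CPM in siCtr and 66.5 to 82.7 CPM in siIrf1 cells and differed at 0 d, and Lrrc32 differed after TGFbeta, at 87.5 and 102 CPM against 24.1 to 30.3 CPM.

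Weakened falls were led by genes with few counts left after TGFbeta. Slc4a1, the band 3 anion exchanger, and Sult1d1, a sulfotransferase, had 0 counts in both siCtr TGFbeta libraries, so against a floor of 3 counts over the group they were at least 296-fold and 97.4-fold lower than in siCtr 0 d. In siIrf1 TGFbeta they held 0.118 to 0.130 CPM and 0.331 to 0.472 CPM. Their fitted interactions (4.54 and 4.97) depend on how a count of 0 is treated. Slc4a1 (4.35 to 4.61) was called only without siCtr 0 d replicate 3, siIrf1 0 d replicate 2 or siIrf1 TGFbeta replicate 3. Sult1d1 (4.68 to 5.21) was called only without siCtr 0 d replicate 3. Gata5 stood at 15.7 and 8.79 CPM in siCtr cells without TGFbeta and 0.261 and 0.300 CPM with it, against 0.753, 0.724 and 0.607 CPM and 0.413, 0.361 and 0.241 CPM in siIrf1 cells. Gata5, a transcription factor of endoderm and heart, was high only in the siCtr 0 d pair (interaction 4.43 ± 0.504, adjusted p = 0.00160). Muc1 stood at 492 and 404 CPM in siCtr cells without TGFbeta and 35.2 and 38.9 CPM with it, against 101, 117 and 88.7 CPM and 33.4, 40.6 and 43.0 CPM in siIrf1 cells. Muc1, the apical mucin of glandular epithelia, ended at the same range in both siRNAs and began lower in siIrf1 cells (interaction 2.21 ± 0.252, adjusted p = 0.00160). Lgals4, a galectin of gut epithelium named after its values were seen, fell by 3.72 in siCtr and 0.98 in siIrf1 cells, to 265 and 299 CPM and to 899 to 1316 CPM. The interaction of Lgals4 was 2.75 ± 0.282 (adjusted p = 0.00120), and it, Gata5 and Muc1 were called without any single library. The table also holds an identifier without a symbol in the reference tables, id16857, whose interaction of 2.74 was close to that of Lgals4, so reads may be shared between them.

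**Figure D3:**
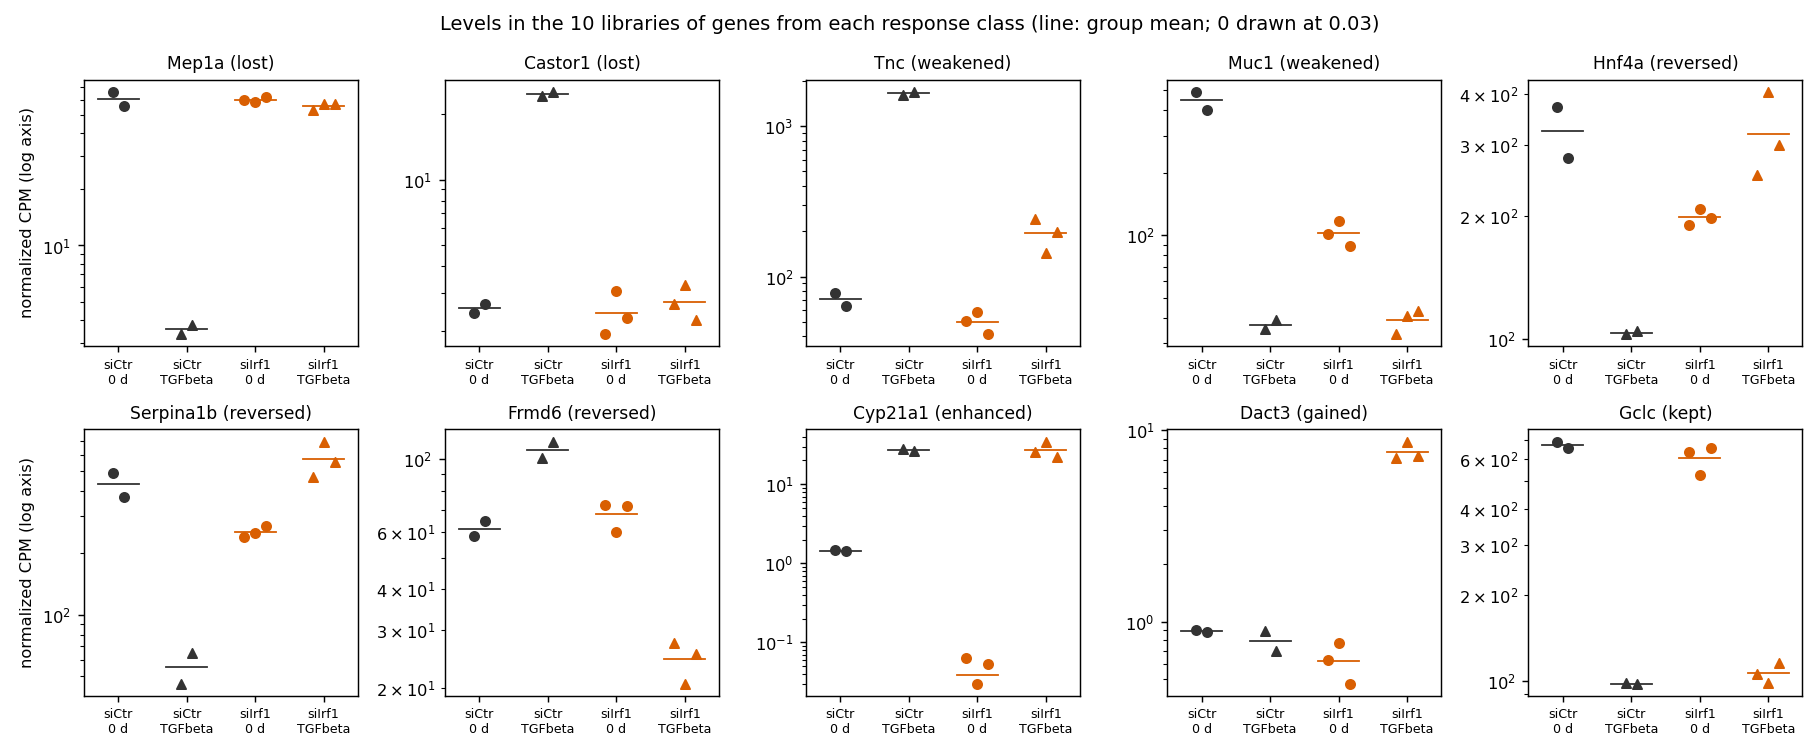
Normalized CPM (log axis, a separate scale in each panel) of 10 genes in each of the 10 libraries, by siRNA and treatment, with group means as lines. Mep1a and Castor1 respond by a call only in siCtr cells, and Tnc and Muc1 less in siIrf1 cells. Hnf4a, Serpina1b and Frmd6 respond in opposite directions, and Gclc alike in both.

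The reversed class was led by the Serpina1 genes, which encode alpha-1 antitrypsin, a protease inhibitor secreted by liver and other epithelia. In siCtr cells Serpina1b measured 488 and 371 CPM at 0 d and 46.1 and 64.9 CPM after TGFbeta, and in siIrf1 cells 237, 249.7 and 270.2 CPM and 467, 694 and 549 CPM. The siCtr TGFbeta pair was the lowest of the 10 libraries, and every siIrf1 TGFbeta library was above every siIrf1 0 d library, so the changes were -2.95 ± 0.251 and 1.18 ± 0.193 (interaction 4.13 ± 0.315, adjusted p = 3.9e-04). Serpina1a, Serpina1c and, named after its values were seen, Serpina1e had interactions of 3.95 ± 0.290 (adjusted p = 3.9e-04), 3.82 ± 0.287 (adjusted p = 3.9e-04) and 3.60 ± 0.286 (adjusted p = 4.2e-04), and Serpina1d, whose rise in siIrf1 cells was 0.36 ± 0.212 and not called, was in the lost class at 3.56 ± 0.349 (adjusted p = 0.00102). The 5 genes are close copies in 1 cluster, so reads may be split or lost between them and they are not 5 independent observations. Their summed counts, tested as 1 feature in the same model, gave 1266 and 997.1 CPM in siCtr 0 d, 128 and 165 CPM in siCtr TGFbeta, 702, 795 and 844 CPM in siIrf1 0 d and 1225, 1796 and 1418 CPM in siIrf1 TGFbeta. The sum fell by 2.95 ± 0.235 in siCtr cells (adjusted p = 1.2e-05) and rose by 0.92 ± 0.180 in siIrf1 cells (adjusted p = 0.00408), an interaction of 3.87 ± 0.293 (adjusted p = 6.6e-04). The interaction of each copy was called without any single library.

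The promoter windows of the 3 Serpina1 genes chosen by the naming rule are shown because they lie close together, move together and differ in few bases. They run from 250 bases before to 50 after the annotated start, from RefSeq on GRCm38.p6, chr12:103863570-103863869 for Serpina1a, chr12:103738140-103738439 for Serpina1b and chr12:103904901-103905200 for Serpina1c, all on the minus strand, with a match to the AP-1 element TGANTCA in capitals.
Serpina1a: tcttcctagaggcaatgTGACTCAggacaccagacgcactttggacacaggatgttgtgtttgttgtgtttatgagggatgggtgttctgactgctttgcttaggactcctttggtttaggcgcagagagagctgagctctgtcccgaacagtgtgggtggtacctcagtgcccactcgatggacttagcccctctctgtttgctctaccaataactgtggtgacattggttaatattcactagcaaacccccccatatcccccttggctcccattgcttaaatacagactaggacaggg
Serpina1b: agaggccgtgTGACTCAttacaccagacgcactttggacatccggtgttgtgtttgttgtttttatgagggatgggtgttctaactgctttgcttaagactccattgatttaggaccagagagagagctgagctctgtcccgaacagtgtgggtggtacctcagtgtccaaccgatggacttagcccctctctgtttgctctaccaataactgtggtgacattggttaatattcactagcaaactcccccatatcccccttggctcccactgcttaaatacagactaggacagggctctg
Serpina1c: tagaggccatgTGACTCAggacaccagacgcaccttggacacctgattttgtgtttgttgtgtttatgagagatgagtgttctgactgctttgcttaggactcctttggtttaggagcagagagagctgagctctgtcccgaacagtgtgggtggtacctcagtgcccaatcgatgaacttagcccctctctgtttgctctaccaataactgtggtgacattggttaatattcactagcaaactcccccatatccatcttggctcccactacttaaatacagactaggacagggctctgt
In a gapped alignment with free ends, Serpina1a and Serpina1b were identical at 275 of 292 aligned bases (94.2%), Serpina1a and Serpina1c at 94.9%, and the 10 pairs of the 5 windows at 91.7 to 98.4%. The match began 233, 240 and 239 bases before the start, and 4 of the 5 windows held it, the window of Serpina1e beginning further along. None of the 5 held the interferon regulatory factor motif GAAANNGAA on either strand, which says only that these letters are not in these windows.

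Hnf4a, named after its values were seen, encodes a nuclear receptor that controls liver and gut epithelial genes, and was also reversed. Hnf4a stood at 370.4 and 278 CPM in siCtr cells without TGFbeta and 103 and 105 CPM with it, against 190.1, 208 and 198 CPM and 253, 404 and 299 CPM in siIrf1 cells. The siCtr TGFbeta pair was below every other library, and the siIrf1 TGFbeta libraries were above all siIrf1 0 d libraries. It fell by 1.64 in siCtr cells and rose by 0.68 in siIrf1 cells (adjusted p = 0.0224), an interaction of 2.32 ± 0.291 (adjusted p = 0.00242). Pllp, a myelin and membrane proteolipid, and Sec16b, a protein of endoplasmic reticulum exit sites, changed by -1.84 against 1.20 and -1.42 against 1.25 in siCtr against siIrf1 cells. Mylk, the myosin light chain kinase of smooth muscle, stood at 129 and 136 CPM in siCtr 0 d and 53.4 and 54.0 CPM in siCtr TGFbeta, and at 55.6 to 76.1 CPM and 85.8 to 128 CPM in siIrf1 cells. Its interaction was 2.04 ± 0.287 (adjusted p = 0.00424). Mylk (1.87 to 2.20) was not called without siCtr TGFbeta replicate 2. Hnf4a, Pllp and Sec16b were called without any single library.

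Among the 6 reversed genes that rose in siCtr cells, Frmd6, Pla1a and Plet1 met the naming rule. Frmd6 stood at 58.1 and 64.6 CPM in siCtr cells without TGFbeta and 101 and 113 CPM with it, against 72.3, 59.9 and 71.9 CPM and 27.4, 20.6 and 25.4 CPM in siIrf1 cells. Frmd6, a FERM-domain protein of the Hippo pathway, was highest in both siCtr TGFbeta libraries and lowest in all 3 siIrf1 TGFbeta libraries, with an interaction of -2.28 ± 0.250 (adjusted p = 0.00153). In siCtr cells Pla1a measured 132 and 114 CPM at 0 d and 232 and 242 CPM after TGFbeta, and in siIrf1 cells 172, 176 and 181 CPM and 101, 129 and 115 CPM. Pla1a, a phospholipase that acts on phosphatidylserine, rose by 0.95 and fell by 0.62 (interaction -1.56 ± 0.208, adjusted p = 0.00332). Plet1, a membrane-anchored protein of epithelial progenitors, started higher in siIrf1 cells, at 5.57 to 7.06 CPM against 1.18 and 1.73 CPM, and ended at 2.02 to 2.60 CPM against 2.85 and 3.30 CPM (interaction -2.55 ± 0.352, adjusted p = 0.00380). The 3 genes were called without any single library. The other 3 were Plac1, Wdr72 and Pdpn, with group means of at most 2.34 CPM, with TGFbeta changes of 3.84 against -2.43, 2.30 against -1.18 and 1.49 against -1.40 in siCtr against siIrf1 cells. Plac1 held 3 counts in all in siCtr 0 d and 8 in siIrf1 TGFbeta, so the size of its changes is uncertain. Pdpn (-3.41 to -2.63) was not called without replicate 1 of siCtr 0 d or replicate 2 of siCtr TGFbeta. The remaining 11 genes that fell in siCtr cells and rose in siIrf1 cells were Tmem253, Ace3, Hepacam, Spp2, Mrvi1, Lrrc75b, Pde6a, Zfp862-ps, Stk40, Ppp1r12b and Nacc2, with interactions of 1.23 (Nacc2) to 3.06 (Tmem253). Of all 25 reversed genes 13 were called without any single library.

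Enhanced responses were few. Cyp21a1 stood at 1.45 and 1.43 CPM in siCtr cells without TGFbeta and 27.7 and 26.1 CPM with it, against 0.0628, 0 and 0.0528 CPM and 25.6, 34.7 and 22.2 CPM in siIrf1 cells. The 0 d groups of Cyp21a1, which encodes the steroid 21-hydroxylase, did not overlap, and its TGFbeta groups did. With 4 counts over siIrf1 0 d the size of its rise there is uncertain, and the interaction was 5.26 ± 0.618 (adjusted p = 0.00179). In siCtr cells Oasl2 measured 2.40 and 3.03 CPM at 0 d and 23.6 and 22.6 CPM after TGFbeta, and in siIrf1 cells 0.188, 0.0678 and 0.0791 CPM and 13.3, 12.9 and 21.9 CPM. Oasl2, an interferon-induced member of the oligoadenylate synthetase family, lay lower in every siIrf1 library before TGFbeta, and every siIrf1 TGFbeta library was still below both siCtr TGFbeta libraries (interaction 4.10 ± 0.527, adjusted p = 0.00287). Csdc2, an RNA-binding cold shock protein, rose by 3.53 in siCtr and 6.04 in siIrf1 cells, and it, Cyp21a1 and Oasl2 were called without any single library. Other enhanced rises were those of Acsbg1, Fcgrt, Ctse, Col15a1, Fam210b, Cacna1g and Nupr1, with interactions of 1.20 (Nupr1) to 2.43 (Acsbg1), and of Tenm4, Col4a4 and Foxf2, given below. Of the 17 enhanced genes 4 fell. Sbsn, which encodes the epidermal protein suprabasin, ended at 6.05 to 6.16 CPM in siCtr and 1.59 to 2.12 CPM in siIrf1 cells from overlapping 0 d levels (interaction -1.53 ± 0.285, adjusted p = 0.0155). The glucocorticoid-activating enzyme gene Hsd11b1 had an interaction of -1.32 ± 0.231 (adjusted p = 0.0116), and Akr1b7, an aldo-keto reductase that differed before TGFbeta, of -2.12 ± 0.385 (adjusted p = 0.0137). Sbsn (-1.74 to -1.43) was not called without siIrf1 0 d replicate 1 or either siCtr TGFbeta library. Hsd11b1 (-1.48 to -1.26) and Akr1b7 (-2.37 to -2.02) were not called without either siCtr TGFbeta library. The fourth, Ly6a, had an interaction of -1.12. Ly6a (-1.24 to -0.93) was called only without siCtr 0 d replicate 3 or siIrf1 0 d replicate 2.

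Tenm4, a teneurin adhesion receptor, was the only gene chosen by class whose promoter window matched the interferon regulatory factor motif GAAANNGAA, and the window is shown for that reason. It is 1 of 2 windows of the gene, chr7:96170994-96171293 on the plus strand of GRCm38.p6 from RefSeq, with the match in capitals, starting 81 bases before the annotated start.
Tenm4: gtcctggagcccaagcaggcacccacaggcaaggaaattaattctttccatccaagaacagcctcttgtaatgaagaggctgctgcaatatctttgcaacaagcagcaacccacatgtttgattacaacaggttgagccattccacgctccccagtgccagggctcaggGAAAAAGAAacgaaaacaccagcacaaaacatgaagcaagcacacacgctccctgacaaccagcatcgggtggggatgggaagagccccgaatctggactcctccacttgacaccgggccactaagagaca
Tenm4 stood at 1.85 and 1.67 CPM in siCtr cells without TGFbeta and 10.8 and 10.3 CPM with it, against 0.157, 0.0678 and 0.0791 CPM and 3.98, 3.27 and 6.62 CPM in siIrf1 cells. Every siIrf1 library of Tenm4 was below every siCtr library of the same condition, and the ratio was smaller after TGFbeta (interaction 2.93 ± 0.556, adjusted p = 0.0169). Tenm4 (2.59 to 3.33) was not called without siCtr 0 d replicate 1, siIrf1 0 d replicate 2 or 3 or either siCtr TGFbeta library. Over all genes tested 7.07% of windows held GAAANNGAA, and over interaction genes 6.22%. The Smad element CAGACA was in 16.3% and 23.6%, and the AP-1 element TGANTCA in 5.78% and 11.7%, each searched on both strands. Windows were found for 10338 of the genes tested and 414 of the interaction genes. These shares describe letters in windows and name no factor.

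Gained responses were mostly rises. Dact3 stood at 0.903 and 0.879 CPM in siCtr cells without TGFbeta and 0.893 and 0.700 CPM with it, against 0.628, 0.769 and 0.475 CPM and 7.14, 8.69 and 7.28 CPM in siIrf1 cells. Dact3, a Dapper family antagonist of Wnt signalling, was high only in the siIrf1 TGFbeta libraries, and its interaction was 3.76 ± 0.391 (adjusted p = 0.00122). In the rises of Cyp26b1, which degrades retinoic acid, and Slc2a5, a fructose transporter, siIrf1 cells started lower and reached or passed the siCtr range. Cyp26b1 stood at 1.53 to 3.05 CPM and then 10.2 to 12.2 CPM in siIrf1 cells, with siCtr cells at 7.01 to 10.2 CPM throughout (interaction 2.54 ± 0.408, adjusted p = 0.00780). Slc2a5 had an interaction of 2.52 ± 0.389 (adjusted p = 0.00631). Cyp26b1 (2.22 to 2.79) and Slc2a5 (2.36 to 2.74) were not called without either siCtr TGFbeta library. Marveld1, a MARVEL-domain membrane protein named after its values were seen, stood at 494 to 536 CPM in siIrf1 TGFbeta after 165 to 193 CPM, and in siCtr cells at 618 to 643 CPM against 633 to 751 CPM at 0 d (interaction 1.65 ± 0.196, adjusted p = 0.00179). Rida, a deaminase that removes reactive imines, fell from 131 to 157 CPM to 30.8 to 35.7 CPM in siIrf1 cells and lay at 11.1 to 19.8 CPM in all 4 siCtr libraries. The interaction of Rida was -1.92 ± 0.332 (adjusted p = 0.0111). The intermediate filament gene Synm and the semaphorin gene Sema5a were gained falls with interactions of -1.56 and -1.52. Rida (-2.33 to -1.60) was not called without siCtr TGFbeta replicate 2. Synm (-2.0 to -1.35) was called only without siCtr 0 d replicate 3. Sema5a (-1.68 to -1.37) was called only without siCtr 0 d replicate 3 or siIrf1 TGFbeta replicate 2 or 3. Dact3 and Marveld1 were called without any single library.

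Kept responses were those called in the same direction for both siRNAs with no interaction call, 1829 genes, 975 up and 854 down. A missing interaction call does not show an equal response, so the 542 genes (299 up, 243 down) whose 95% interval of the interaction lay within a 2-fold difference were set apart. Gclc, the catalytic subunit of glutathione synthesis, stood at 656 and 690 CPM in siCtr 0 d and 525 to 654 CPM in siIrf1 0 d, and at 97.7 to 97.8 CPM and 98.5 to 115 CPM after TGFbeta. Its interaction was 0.28 with an interval of -0.17 to 0.73. Gstm2, a glutathione transferase, fell by 2.53 ± 0.229 and 2.79 ± 0.189, with an interval of -0.88 to 0.36. The rule also named Rab15, P2rx6, 6030468B19Rik and Tmprss4, which had at most 2 counts in a group of at least 1 siRNA, where the interval does not measure the error, and their values are left out. Among the 531 genes with at least 1 CPM in every group, Bhlhe40, a transcription factor induced by TGFbeta, rose by 2.41 ± 0.177 and 2.17 ± 0.143 (interval -0.72 to 0.24), and Add2, which encodes beta-adducin, by 2.75 ± 0.188 and 2.59 ± 0.153 (interval -0.66 to 0.35). Bmp1, the protease that trims procollagen, rose by 3.24 ± 0.185 and 2.80 ± 0.149, and the phosphodiesterase gene Pde8b fell by 2.50 ± 0.232 and 2.69 ± 0.189. That level minimum and these 4 genes were chosen after the values were seen.

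Of 15 tested genes commonly read as markers of EMT, 5 had an interaction call, among them Cdh1, Muc1, Tnc and Itga5. In siCtr cells Cdh1 measured 694 and 586 CPM at 0 d and 339 and 362 CPM after TGFbeta, and in siIrf1 cells 621, 608 and 581 CPM and 577, 702 and 722 CPM. Only the siCtr TGFbeta pair of Cdh1, the epithelial cadherin, was low, so its fall in siCtr cells was lost in siIrf1 cells (-0.87 ± 0.163 against 0.15 ± 0.132, interaction 1.01 ± 0.209, adjusted p = 0.0262). Cdh1 (0.85 to 1.11) was called only without siCtr 0 d replicate 3 or any siIrf1 TGFbeta library. It was also not called without the 2 libraries that stood apart (0.79). Muc1, Tnc and Itga5 were weakened, as described above. Fn1, fibronectin, rose from 270 and 290 CPM to 9131 and 9615 CPM in siCtr cells and from 186 to 360 CPM to 589 to 2412 CPM in siIrf1 cells, without overlap after TGFbeta, and its interaction of -2.54 ± 0.682 (adjusted p = 0.0752) missed the threshold. Cdh2, the neuronal cadherin, rose to 329 and 336 CPM and to 122 to 201 CPM, an interaction of -1.17 ± 0.292 (adjusted p = 0.0549). Snai1 had an interaction of -1.92 ± 0.552 (adjusted p = 0.0917), Zeb2 of -2.04 ± 0.768 (adjusted p = 0.194), Krt18 of -0.82 ± 0.258 (adjusted p = 0.122) and Esrp1, an epithelial splicing regulator at under 0.6 CPM in every library, of 1.77 ± 0.748 (adjusted p = 0.245). With the GC and length trend removed Fn1 (-2.62, adjusted p = 0.0297), Cdh2 (-1.23, adjusted p = 0.0165), Snai1 (-2.31, adjusted p = 0.00603) and Krt18 (-1.20, adjusted p = 0.00487) were called. Vimentin (Vim), the Smad feedback inhibitor Smad7 and the tight junction gene Ocln were kept within a 2-fold difference. Their interactions were -0.16 ± 0.246, -0.36 ± 0.286 and 0.22 ± 0.281. With the trend removed they were -0.12, -0.56 (adjusted p = 0.0644) and 0.745 (adjusted p = 0.133), none called. Without the 2 libraries that stood apart they were -0.47, -0.69 and 0.35, so equal responses were not shown. Zeb1 was kept, at -0.41 ± 0.623 (adjusted p = 0.763) with an interval of -1.80 to 0.99, and the sign of its interaction turned without the 2 libraries that stood apart (0.41).

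Gene lists were read by the share of their tested members with an interaction call, against 4.12% of all genes, and by their median interaction, against 0.031 over all genes. These lists were chosen with earlier results of these data known, and no list was tested against other genes. For called genes of the lists, higher or lower again gives the sign of the interaction and not the level. Within the pathway itself 1 of 21 ligands, receptors and Smads was called, Tgfb3 (gained fall, interaction -2.39 ± 0.441, adjusted p = 0.0148). Of 20 feedback inhibitors and immediate targets 2 were called, among them Klf10 (-1.20), and 13 of the 20 had a kept response. Of 8 Id genes and BMP targets the Notch effector Hey1 was called, a lost fall at 2.10 ± 0.404 (adjusted p = 0.0181). Tgfb3 (-2.78 to -2.20) was not called without replicate 1 of siCtr 0 d or replicate 2 of siCtr TGFbeta. Klf10 (-1.65 to -0.97) was called only without siCtr 0 d replicate 3 or siIrf1 TGFbeta replicate 3. Hey1 (1.67 to 2.44) was not called without siCtr 0 d replicate 1, siIrf1 0 d replicate 1 or siCtr TGFbeta replicate 2.

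**Figure D4:**
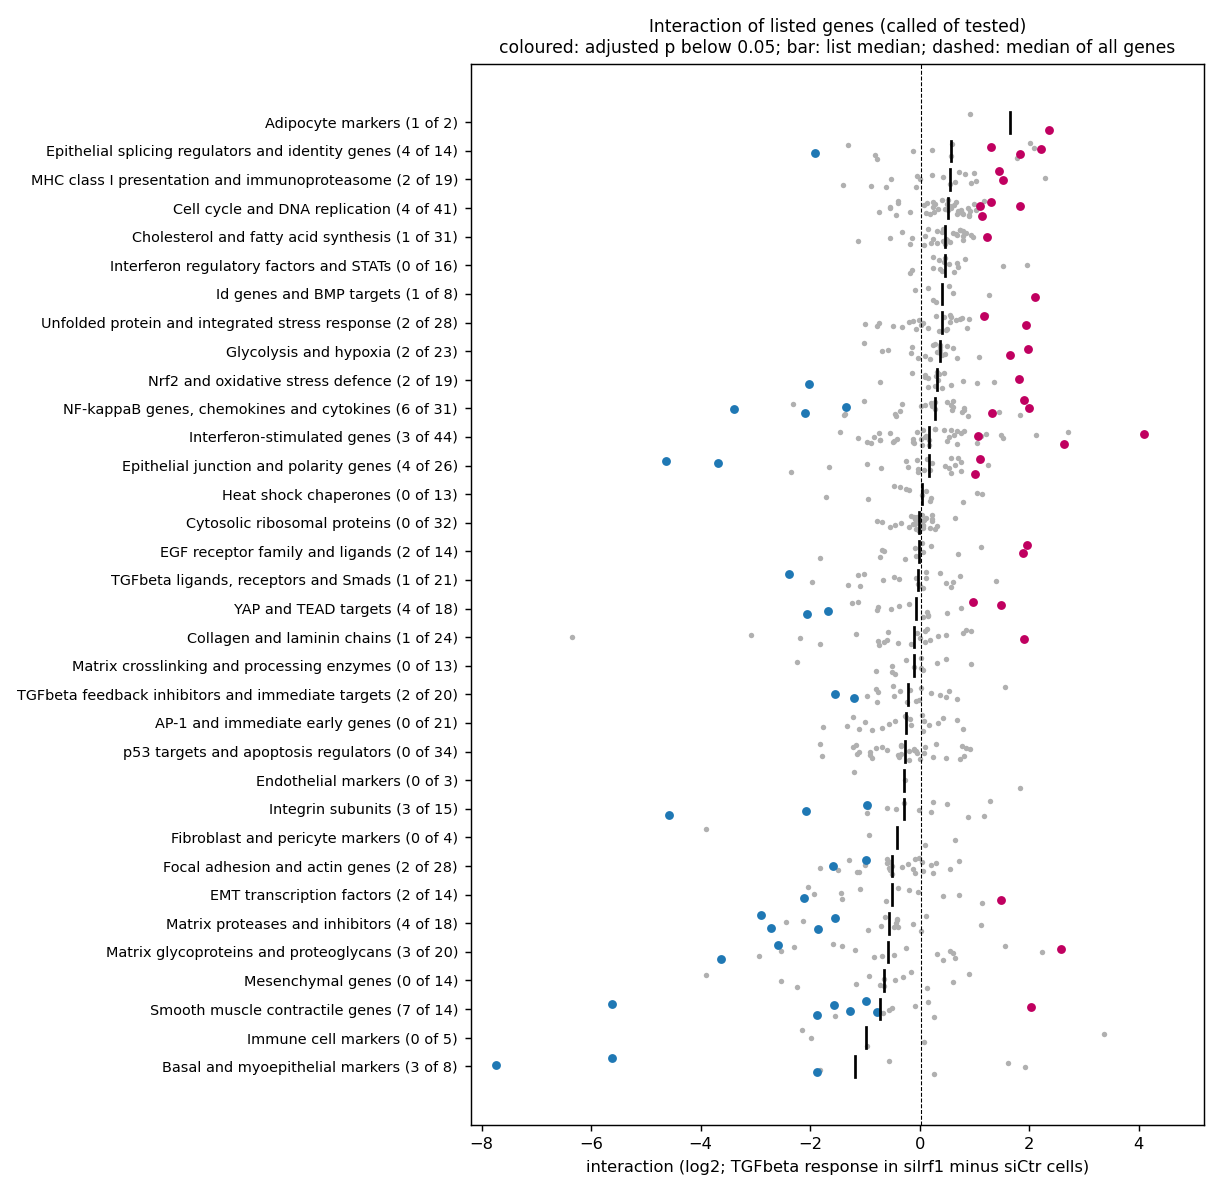
Interaction (log2, horizontal axis) of every tested gene of the 34 lists, ordered by list median, with called genes in colour, list medians as bars and the median of all genes dashed. Called smooth muscle, protease and integrin genes lie to the left except Mylk, and called cell cycle genes to the right.

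Called genes of the smooth muscle, basal, matrix protease and integrin lists had negative interactions, with 1 exception, Mylk. This sign is not that of the level. Mean Tpm1 was 1112 CPM in siIrf1 0 d and 566 CPM in siCtr 0 d, and 2254 and 2250 CPM after TGFbeta. Of 14 smooth muscle contractile genes 7 were called, 6 with a negative interaction (Tagln, Cnn1, Csrp1, Synm, Tpm1 and Cnn3) and Mylk with a positive one. The list median was -0.718. Csrp1, a LIM protein of actin bundles, rose in siCtr cells from 167 and 210 CPM to 499 and 502 CPM and stood at 350 to 387 CPM and 314 to 456 CPM in siIrf1 cells (interaction -1.28 ± 0.261, adjusted p = 0.0244). Of 8 basal and myoepithelial markers 3 were called, all lower (Tagln, Cnn1 and Krt17). Krt17, a basal keratin, had 0 counts in siCtr 0 d and was at least 36.3-fold higher after TGFbeta, at 1.60 and 2.01 CPM against 0.120 to 0.304 CPM in siIrf1 TGFbeta. All 4 called of 18 matrix proteases and inhibitors were lower, among them Adamts4 (-1.87), Timp3 (-2.91) and Mmp10 (-2.72). Of 15 integrin subunits 3 were called, all lower, Itga5, Itgb3 (-0.96) and Itga11, the last with 1 count in siCtr 0 d. The list median of the integrins, -0.289, turned to 0.147 without the 2 libraries that stood apart. Of 28 focal adhesion and actin genes Palld (-1.58 ± 0.347, adjusted p = 0.0351) and Tpm1 (-0.97 ± 0.215, adjusted p = 0.0349) were called, both lower. Csrp1 (-1.50 to -1.13) was not called without any siIrf1 0 d library or either siCtr TGFbeta library. Cnn1 (-2.07 to -1.70) was called only without siCtr 0 d replicate 3, siIrf1 0 d replicate 3 or siIrf1 TGFbeta replicate 2 or 3. Cnn3 (-0.91 to -0.74) was called only without siCtr 0 d replicate 3 or siIrf1 TGFbeta replicate 2. Krt17 (-8.01 to -7.50) was not called without replicate 1 of siIrf1 0 d or replicate 2 of siCtr TGFbeta. Adamts4 (-2.17 to -1.75) was not called without siCtr 0 d replicate 1 or either siCtr TGFbeta library. Timp3 (-3.69 to -2.44) was called only without siCtr 0 d replicate 1 or siIrf1 TGFbeta replicate 1. Mmp10 (-3.12 to -2.42) was called only without siIrf1 TGFbeta replicate 1 or 2. Itgb3 (-1.21 to -0.85) was called only without siCtr 0 d replicate 3 or siIrf1 TGFbeta replicate 3. Itga11 (-7.30 to -3.89) was called only without siCtr 0 d replicate 3, siIrf1 0 d replicate 1 or siIrf1 TGFbeta replicate 1. Palld (-1.71 to -1.34) was called only without siCtr 0 d replicate 3 or any siIrf1 TGFbeta library. Tpm1 (-1.16 to -0.87) was called only without either siCtr 0 d library or siIrf1 TGFbeta replicate 2 or 3.

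Of 20 matrix glycoproteins and proteoglycans 3 were called, Tnc and the proteoglycan Bgn (-3.63, under 1 CPM) lower, and the basement membrane gene Nid2 higher, a weakened fall at 2.58 ± 0.343 (adjusted p = 0.00332). Of 24 collagen and laminin chains only Col4a4 was called, an enhanced rise at 1.90 ± 0.322 (adjusted p = 0.00987), and 15 of the 24 were kept. None of 14 mesenchymal genes, 13 matrix crosslinking enzymes, 21 AP-1 and immediate early genes, 34 p53 targets, 13 heat shock chaperones or 32 cytosolic ribosomal protein genes was called by edgeR. At an unadjusted p below 0.05 there were 7, 4, 7, 9, 3 and 0 of them, and DESeq2 called 3, 1, 4, 4, 1 and 0. With the trend removed 5 of the mesenchymal genes, 3 of the crosslinking enzymes and 6 of the AP-1 and immediate early genes were called. Of 14 EMT transcription factors Hmga2 was called lower, at 152 and 181 CPM in siCtr TGFbeta against 14.8 to 34.5 CPM in siIrf1 TGFbeta (interaction -2.11 ± 0.425, adjusted p = 0.0250), and Foxf2 higher, an enhanced rise at 1.48 ± 0.216 (adjusted p = 0.00502). Of 18 YAP and TEAD targets Ccn1 (-1.68 ± 0.269, adjusted p = 0.00769) and Ankrd1 (-2.05 ± 0.406, adjusted p = 0.0228) were lower and Foxf2 and Ptpn14 (0.98) higher. Bgn (-4.79 to -3.16) and Ptpn14 (0.87 to 1.05) were not called without siCtr 0 d replicate 1, siIrf1 0 d replicate 1 or 3 or either siCtr TGFbeta library. Col4a4 (1.63 to 2.06) and Foxf2 (1.36 to 1.56) were not called without either siCtr TGFbeta library. Hmga2 (-2.37 to -1.82) was called only without siCtr 0 d replicate 3 or any siIrf1 TGFbeta library. Ankrd1 (-2.82 to -1.65) was not called without siIrf1 0 d replicate 1 or 3 or either siCtr TGFbeta library.

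Calls in the epithelial lists went in both directions. Of 26 junction and polarity genes Cdh1 and the plakin Ppl (1.11) had positive interactions, and Nectin4 and Pkp1 negative ones. Ppl fell less from a lower start. Its means were 214 CPM in siIrf1 0 d and 595.5 CPM in siCtr 0 d, and 59.4 and 76.7 CPM after TGFbeta. Nectin4, a nectin of epithelial junctions, stood at 0.273 and 0.393 CPM in siCtr 0 d and 9.03 and 9.73 CPM in siCtr TGFbeta, and at 1.15 to 1.37 CPM and 2.29 to 3.22 CPM in siIrf1 cells, without overlap of the groups (interaction -3.68 ± 0.381, adjusted p = 0.00121). Of 14 splicing and identity genes Muc1, Rbm47 (1.31) and Krt19 (1.82) were higher and Krt7 (-1.91 ± 0.348, adjusted p = 0.0149) lower, all weakened responses, so keratins 7 and 19 differed in direction. Of 14 genes of the EGF receptor family Erbb3 (1.89 ± 0.270, adjusted p = 0.00454) and the feedback inhibitor Spry4 (1.96) were higher. Ppl (0.77 to 1.26) was not called without siCtr 0 d replicate 3, siIrf1 0 d replicate 1 or 3 or either siCtr TGFbeta library. Pkp1 (-8.30 to -3.64) was not called without siIrf1 0 d replicate 1 or 2 or either siCtr TGFbeta library. Rbm47 (1.07 to 1.42) was not called without siCtr 0 d replicate 1, siIrf1 0 d replicate 1 or 3 or either siCtr TGFbeta library. Krt19 (1.44 to 2.09) was called only without siCtr 0 d replicate 3 or siIrf1 TGFbeta replicate 2 or 3. Krt7 (-2.20 to -1.72) was not called without either siCtr TGFbeta library. Erbb3 (1.70 to 2.01) was not called without siCtr TGFbeta replicate 2. Spry4 (1.40 to 2.45) was called only without siCtr 0 d replicate 3, siCtr TGFbeta replicate 3 or siIrf1 TGFbeta replicate 3.

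The interferon lists, which hold the best known targets of Irf1, had 5 interaction calls, all positive. Of all interaction calls 68% were positive. The share called was 6.82% of interferon-stimulated genes and 10.5% of MHC class I genes, against 4.12% of all genes tested. Without TGFbeta all 5 genes were lower in siIrf1 than in siCtr cells. The log2 differences were -4.63 (Oasl2), -2.20 (Lgals3bp), -1.74 (Tapbpl), -1.49 (H2-T23) and -1.23 (Cmpk2). After TGFbeta only Cmpk2 was higher in siIrf1 cells by a call (1.40), and Lgals3bp was lower (-1.13). Of 44 interferon-stimulated genes 3 were called (6.82%), each in another class. Cmpk2, an interferon-induced nucleotide kinase, stood at 7.78 and 7.82 CPM in siCtr 0 d, 0.600 and 0.893 CPM in siCtr TGFbeta, 2.96 to 3.55 CPM in siIrf1 0 d and 1.89 to 2.15 CPM in siIrf1 TGFbeta, with no overlap of the groups (interaction 2.63 ± 0.331, adjusted p = 0.00245). Oasl2 was enhanced, and Lgals3bp, a secreted glycoprotein, was a lost fall at 1.06, with siIrf1 cells at 48.4 to 64.9 CPM in both conditions against 126 to 282 CPM in siCtr cells. Of 19 genes of MHC class I presentation the tapasin-like Tapbpl (1.45) and H2-T23 (1.51) had positive interactions, and H2 genes are close copies. None of 16 interferon regulatory factors and STATs was called by edgeR (4 at an unadjusted p below 0.05, and 3 called by DESeq2), with a list median of 0.454. Of 31 NF-kappaB genes, chemokines and cytokines 6 were called (19.4%): Il11, Lif (-1.34 ± 0.221, adjusted p = 0.00862) and Csf2 (-2.10) lower, and Lcn2 (2.00 ± 0.307, adjusted p = 0.00619), Vcam1 (1.91) and Cx3cl1 (1.32) higher. The median of this list, 0.274, was -0.098 with the trend removed. Lgals3bp (0.88 to 1.14) was called only without siCtr 0 d replicate 3, siIrf1 0 d replicate 2 or siIrf1 TGFbeta replicate 1 or 2. Tapbpl (1.26 to 1.57) was called only without siCtr 0 d replicate 3 or siIrf1 TGFbeta replicate 2 or 3. H2-T23 (1.31 to 1.66) was called only without siIrf1 TGFbeta replicate 2 or 3. Lif (-1.51 to -1.27) was not called without siCtr TGFbeta replicate 2. Csf2 (-2.38 to -1.91) was called only without siCtr 0 d replicate 3, siIrf1 0 d replicate 2 or siIrf1 TGFbeta replicate 3. Lcn2 (1.84 to 2.10) was not called without either siCtr TGFbeta library. Vcam1 (1.46 to 2.28) was not called without siCtr 0 d replicate 1, any siIrf1 0 d library or siCtr TGFbeta replicate 2. Cx3cl1 (1.13 to 1.52) was called only without siIrf1 0 d replicate 2 or siIrf1 TGFbeta replicate 2.

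TGFbeta lowered 31 of 41 cell cycle and replication genes in siCtr cells and 21 in siIrf1 cells, where over all 13135 genes it lowered 2147 and 1276. It raised none of the 41 in either, and the interaction was called for 4, all higher: E2f2 (1.83 ± 0.337, adjusted p = 0.0148), Aurkb (1.14), Plk1 (1.30) and Foxm1 (1.11). The list median of 0.517 was 0.278 without the 2 libraries that stood apart, where 1 gene was called. Of 23 glycolysis and hypoxia genes Pdk1, which inhibits pyruvate dehydrogenase, and Egln3, an oxygen-sensing hydroxylase, were higher. Pdk1 stood at 46.3 and 55.2 CPM in siCtr 0 d and 12.6 and 13.0 CPM in siCtr TGFbeta, and at 32.1 to 42.3 CPM in all 6 siIrf1 libraries (interaction 1.97 ± 0.256, adjusted p = 0.00295), and Egln3 was weakened at 1.65 ± 0.225 (adjusted p = 0.00357). Of 28 stress response genes Herpud1, an endoplasmic reticulum degradation factor, was a lost fall at 1.95 ± 0.225 (adjusted p = 0.00162) with siIrf1 cells at 79.4 to 94.1 CPM in both conditions, and the amino acid transporter Slc7a5 at 1.18 ± 0.214 (adjusted p = 0.0137). Of 19 Nrf2 genes Nqo1 (1.81 ± 0.321, adjusted p = 0.0127) was higher and Gpx3 (-2.03) lower. E2f2 (1.49 to 1.97), Slc7a5 (0.98 to 1.24) and Nqo1 (1.49 to 1.92) were not called without siCtr 0 d replicate 1 or either siCtr TGFbeta library. Aurkb (0.93 to 1.23) was called only without siCtr 0 d replicate 3, siIrf1 0 d replicate 2 or siIrf1 TGFbeta replicate 2 or 3. Plk1 (1.10 to 1.45) was called only without siCtr 0 d replicate 3 or siIrf1 TGFbeta replicate 2 or 3. Foxm1 (0.92 to 1.28) was called only without siCtr 0 d replicate 3, siIrf1 0 d replicate 2 or siIrf1 TGFbeta replicate 2. Gpx3 (-2.79 to -1.69) was called only without siCtr 0 d replicate 3. Pdk1, Egln3 and Herpud1 were called without any single library.

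None of 4 tested fibroblast and pericyte, 3 endothelial and 5 immune markers had an interaction call by edgeR (1, 1 and 3 at an unadjusted p below 0.05, and 0 by DESeq2), and 1 of 2 tested adipocyte markers did, Cidec (2.36). Cidec (2.04 to 2.61) was called only without siCtr 0 d replicate 3, siIrf1 0 d replicate 2 or siIrf1 TGFbeta replicate 2 or 3. The fibroblast markers summed to 0.515 to 0.589 CPM in siCtr 0 d, 0.905 to 1.10 CPM in siIrf1 0 d, 34.5 to 39.0 CPM in siCtr TGFbeta and 27.2 to 31.4 CPM in siIrf1 TGFbeta, with Col1a2, Fap and Lum at 0 in every library. The endothelial markers summed to at most 6.98 CPM with Cldn5, Emcn and Tie1 at 0, the adipocyte markers to at most 4.26 CPM with Plin1 at 0, and the immune markers to 28.3 to 58.7 CPM, mostly Csf1r (25.0 to 56.1 CPM), with Adgre1, Cd3e and Tyrobp at 0. Basal markers summed to 14.3 to 20.6 CPM without TGFbeta, 70.6 and 93.5 CPM in siCtr TGFbeta and 27.9 to 54.3 CPM in siIrf1 TGFbeta. Fewer cells of a type and less RNA per cell cannot be told apart in bulk libraries, and the part of these markers in the results was not tested. With genes of at most 3 counts set to that floor, the medians of 4 lists moved by over 0.1, fibroblast from -0.42 to 0.184, endothelial from -0.278 to -0.839, matrix glycoproteins from -0.587 to -0.758 and mesenchymal genes from -0.658 to -0.555.

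The number of interaction genes depended on single libraries. The direction of all 541 was the same in 8 of the 10 fits that left out 1 library, and that of 540 in the fits without siIrf1 TGFbeta replicate 2 or 3. A gene that a fit did not test was counted there as not the same. These fits share most libraries with the fit that made the calls, so a kept direction was likely in advance and is no further test. Leaving out siCtr TGFbeta replicate 2 left 122 calls and leaving out replicate 3 of that group 182, each with 1 library assumed to vary like the other groups. Without siCtr 0 d replicate 3, so that replicate 1 stood alone, there were 1590 calls, of which 24.9% were higher in siIrf1 cells against 68% with all libraries, and without siCtr 0 d replicate 1 there were 267 (68.5% higher). Without any one of the siIrf1 0 d libraries there were 272 to 412, and without any one siIrf1 TGFbeta library 450 to 526. With the trend of each library with GC content and gene length removed there were 1163 calls, 54.2% of them higher, which included 522 of the 541 genes. Of the genes named above Zfp937 (-1.53, adjusted p = 0.135) and Sema5a (adjusted p = 0.0513) were then not called. Without the 2 libraries that stood apart 367 of the 541 were called, and those lost, at adjusted p-values of 0.0517 to 0.139, included Zfp937, Sult1d1, Slc4a1, Synm, Tgfb3, Klf10, Hey1, Cdh1, Rbm47, Bgn, Itga11, Ptpn14, Lgals3bp, Tapbpl, Spry4, Aurkb, Plk1, Gpx3 and Cidec. Slc4a1 was also not called by DESeq2 (adjusted p = 0.0835). Without a filter on low counts Slc4a1, Lgals3bp and H2-T23 were not called, and with a stricter one Lgals3bp and Plk1 were not, while Bgn, Itga11 and Krt17 were not tested. Of the 541 genes 116 were called without each of the 10 libraries in turn, 57 weakened, 39 lost, 13 reversed, 4 gained and 3 enhanced, and 7 in none of these fits. All 541 kept their sign in replicate 3 alone, the one number present in all 4 groups, whose 4 libraries are among those that made the calls.

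**Figure D5:**
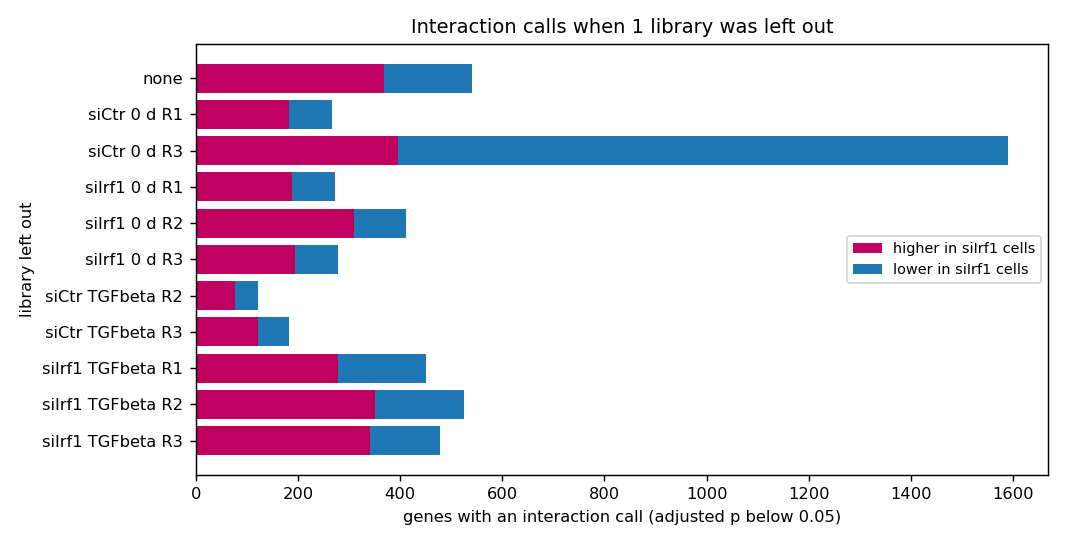
Number of genes with an interaction call (horizontal axis) with all 10 libraries and with each left out in turn, divided by direction. The siCtr TGFbeta libraries, 2 in number, lower the count most when left out, to 122 and 182, and leaving out siCtr 0 d replicate 3 raises it to 1590, mostly by genes lower in siIrf1 cells.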

How the data were processed

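RNA-seq of 10 libraries was read from 1 table of raw counts per gene, deposited by the authors. Reads were aligned with STAR to mm10 (GRCm38), per the submitters' processing notes. The STAR version, the counting tool and its strand setting were not given in the sources used here, so overlapping genes and close copies are uncertain. Of 24454 identifiers 24374 matched RefSeq gene names on GRCm38.p6. Counts were fitted in 1 model of the 4 groups with edgeR 4.0.16 (R 4.3.3; TMM scaling, filterByExpr, robust quasi-likelihood test), and the interaction was a contrast of it. Standard errors were taken from the fold change and its F value. The fitted spread among libraries beyond counting error, the square root of the common dispersion (BCV), was 0.225 with 6 residual degrees of freedom. On simulated data 76% of interactions of 2 log2 units and 4% of those of 1 were recovered, each out of 100 genes. The same fit of 13035 genes made 12 false calls. That was a larger share of its calls than the adjusted p threshold of 0.05 allows on average. How the GC shift and the libraries that stood apart affect recovery and false calls was not measured. The changed genes had means above 5 CPM in both siCtr groups, so recovery at lower levels was not measured.

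The named genes were Irf1, the largest interactions of each class and direction with at least 5 CPM in the highest group, up to 3 called genes per list, and the EMT genes; some called genes are not reported here. The members and lists were chosen with earlier results of these data known. Alternatives were DESeq2 1.42.0, other scaling and filters, a replicate block, removal of GC and length trends, and leaving out libraries. Chi-square values between replicates of the same group found no copies; libraries of different groups were not compared in this way.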

Additional observations from a re-analysis of the deposited data

Results flagged for a closer look

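Each result here stands out because the TGFbeta response differed between siCtr and siIrf1 cells by the interaction term of the edgeR model. The interaction was called for 541 genes, of which 220 had a lost, 229 a weakened, 25 a reversed, 17 an enhanced and 50 a gained response. Among the named genes, opposite responses were found for Plet1 (interaction -2.55), Frmd6 (-2.28), Pla1a (-1.56), Serpina1b (4.13), Serpina1a (3.95), Serpina1c (3.82) and Mylk (2.04), and the 3 Serpina1 genes are close copies.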

How the results depend on the processing

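The siCtr groups hold 2 libraries each, and a difference in response of 1 log2 unit was seldom recovered in simulated data, so genes without an interaction call cannot be called equal. Left out one at a time, the libraries gave 122 to 1590 interaction genes (76 to 396 higher and 46 to 1194 lower), 46 to 1109 lost, 55 to 327 weakened, 13 to 34 reversed, 3 to 20 enhanced, 5 to 91 gained, 1412 to 2262 kept and 186 to 905 kept within 2-fold, with 2297 to 5159 TGFbeta genes in siCtr and 1957 to 3300 in siIrf1 cells. With the GC and length trend removed there were 1163 interaction genes, 630 higher and 533 lower, of which 426 lost, 535 weakened, 62 reversed, 31 enhanced and 104 gained, with 1396 kept within 2-fold and 4211 TGFbeta genes in siIrf1 cells. DESeq2 gave 1166, 725 higher and 441 lower, of which 511 lost, 440 weakened, 44 reversed, 38 enhanced and 118 gained, and no intervals for the kept genes. A stricter filter left 33 gained genes. Without the 2 libraries that stood apart, a choice made after seeing the data, 1092 genes were kept within 2-fold, and 4873 TGFbeta genes were called in siIrf1 and 4208 in siCtr cells, which turned the order of these counts. The titles give each replicate number a code of its own, shared across groups and not explained, and 8 of 12 correlations of same-numbered libraries were over 0.1 (-0.507 to 0.513). In a group of 2 libraries the deviations from the group mean mirror each other, and differently numbered libraries were not compared. These correlations therefore cannot decide whether the numbers mark a pairing. With a replicate block 522 interaction genes were called, which included 422 of the 541 (398 in the same class). The block ended the calls of 12 of 83 named genes, among them Zfp937, Sult1d1, Synm, Klf10, Cdh1, Bgn, Timp3, Itga11, Palld, Spry4 and Gpx3. With the block and the trend removed, 348 were lower, 406 weakened, 52 reversed and 1287 kept within 2-fold. Over the alternatives 1452 values of named genes were counted as the same, 295 were no longer past the threshold, 22 passed it, 47 moved and 4 reversed. The 4 were Zeb1, at 0.115 without siCtr 0 d replicate 1 (-1.501 without replicate 3 of that group) and 0.409 without the 2 libraries that stood apart, and Ocln, at -0.021 without siCtr 0 d replicate 3 and -0.017 without siCtr TGFbeta replicate 2 (up to 0.33 over the libraries left out). In the refits, the same means that direction and side of the threshold were kept. Replicate 3 alone had no test, so there the same means within 1 standard error of the main value, and moved means beyond it. Zeb1 also had the opposite sign in replicate 3 alone (0.468), counted as moved. The cause of these sign changes was not tested.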
